A study of Homo sapiens with 13 samples.

Results

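H82-only intergenic regions were stretches of open chromatin that were listed for the small cell lung cancer (SCLC) line H82, met no region of the SCLC line H146, and lay away from every protein-coding gene. The members were defined by the measured regions themselves. A member was an H82 region on chromosomes 1 to 22 of at least 500 bp and under 2000 bp, with 0 bp of overlap with any H146 region, whose centre lay outside all protein-coding gene bodies and over 10 kb from the transcription start site (TSS) of any protein-coding gene. There were 10131 such regions among 201148 autosomal H82 regions (5.04%), and among 371134 autosomal regions of both lines. Accessibility had been measured by ATAC-seq, where a transposase, Tn5, inserts adapters into DNA that is not packed away. H82 and H146 are established human SCLC lines, wild type by their labels. Each was left untreated or exposed to 100 nM FHD-286, which blocks SMARCA4 and SMARCA2, the motors of the SWI/SNF remodelling complex, for 14 days with the drug renewed during that time, and cells were frozen before the assay. The 13 libraries comprised 3 untreated and 3 treated H82 samples and 4 untreated and 3 treated H146 samples, and nothing says that they came from separate cultures. For each line 1 list of regions pooled over untreated and treated libraries was used, holding a chromosome, a start and an end.

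The comparison of FHD-286 with untreated cells could not be made from pooled regions, no value had a spread between cultures, and the depth of each library was unknown. The line could not be told apart from the number of its libraries, their depth or its DNA copies. Membership is therefore a description. What could be tested was what the rule did not use, chiefly the base sequence, with the autosome as the unit. Such a test shows whether a difference held across chromosomes and does not measure how far cultures differ. RNA was not measured in these files, so the identity of the lines was not checked by marker genes.

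Distal open regions of this kind are often enhancers, which bind transcription factors at short DNA words and act on genes that may lie far away. H82 belongs to the SCLC subtype marked by NEUROD1, a proneural basic helix-loop-helix factor that binds E-boxes and prefers the form CAGATG. Another E-box form is CAGCTG. OTX2 and CRX are homeobox factors of forebrain, retina and pineal development that bind TAATCC. A word was counted on both strands, so that TAATCC also stands for GGATTA and CAGATG for CATCTG. A match is a description of the letters and not a measured binding site.

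To show how these words lay in the members, 200 bp of the member with the most CAGATG and TAATCC matches is printed for 7 named genes, each gene being the one with the nearest protein-coding TSS. The sequences are the plus strand of hg38, and capitals mark CAGATG and TAATCC on either strand.
SOX11, chr2:5969479-5969678: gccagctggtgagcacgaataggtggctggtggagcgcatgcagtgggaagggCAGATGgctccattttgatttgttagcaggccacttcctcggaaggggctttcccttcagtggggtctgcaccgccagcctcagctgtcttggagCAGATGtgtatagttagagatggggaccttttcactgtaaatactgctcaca
OTX2, chr14:57035858-57036057: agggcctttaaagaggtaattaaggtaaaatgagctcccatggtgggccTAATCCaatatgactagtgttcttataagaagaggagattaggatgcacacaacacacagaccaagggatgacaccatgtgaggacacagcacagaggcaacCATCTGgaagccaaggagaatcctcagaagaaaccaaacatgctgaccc
PCDH9, chr13:67888144-67888343: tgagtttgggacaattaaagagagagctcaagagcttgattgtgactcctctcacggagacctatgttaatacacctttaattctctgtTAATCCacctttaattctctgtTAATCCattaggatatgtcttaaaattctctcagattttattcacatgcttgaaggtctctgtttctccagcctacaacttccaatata
PCDH10, chr4:132445354-132445553: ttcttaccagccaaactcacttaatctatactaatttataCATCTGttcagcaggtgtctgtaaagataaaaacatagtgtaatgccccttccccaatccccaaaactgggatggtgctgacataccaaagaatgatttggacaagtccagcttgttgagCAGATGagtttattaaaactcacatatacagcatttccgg
SIX3, chr2:44797081-44797280: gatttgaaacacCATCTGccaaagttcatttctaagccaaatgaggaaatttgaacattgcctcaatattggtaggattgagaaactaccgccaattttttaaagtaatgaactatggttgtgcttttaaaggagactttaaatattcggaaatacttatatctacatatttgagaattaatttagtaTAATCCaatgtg
PROX1, chr1:213883060-213883259: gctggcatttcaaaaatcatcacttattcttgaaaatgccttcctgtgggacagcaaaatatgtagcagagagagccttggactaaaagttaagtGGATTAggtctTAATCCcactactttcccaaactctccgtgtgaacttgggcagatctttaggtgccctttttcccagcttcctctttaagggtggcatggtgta
EFNB2, chr13:106031491-106031690: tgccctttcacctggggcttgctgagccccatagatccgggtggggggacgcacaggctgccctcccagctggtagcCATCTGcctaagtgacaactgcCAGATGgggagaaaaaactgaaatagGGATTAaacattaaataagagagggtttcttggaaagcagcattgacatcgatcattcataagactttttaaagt

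All 7 windows lay in intergenic sequence by the rule, although 5 of the 7 members had their centre in a long non-coding RNA (lncRNA) gene. The OTX2 member was 219.8 kb upstream of the OTX2 TSS, inside OTX2-AS1, and held 2 CAGATG and 2 TAATCC matches in 1435 bp. The SIX3 member was 145.1 kb upstream of SIX3 and held 3 of each in 1323 bp. The PROX1 member, inside PROX1-AS1 and 100.2 kb upstream, had 4 TAATCC and 0 CAGATG matches. The SOX11 member, inside the lncRNA SILC1 and 277 kb downstream, had 4 CAGATG and 1 TAATCC. Windows with the most matches were chosen, so their word counts are no measure of the other members.

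TAATCC was the 6-base word most in excess in the members. It occurred 1.25 times per kb in the H82-only intergenic regions, against 0.515 times per kb in 23034 intergenic H82 regions of the same width and distance limits that an H146 region overlapped. The log2 ratio was 1.28 (jackknife SE over chromosomes 0.035), the density was higher on 22 of 22 autosomes, and the word ranked 1 of all 6-base words (two-sided sign-flip permutation test over chromosomes, Benjamini-Hochberg adjusted p = 3.81e-05, from p = 1e-05, the smallest that 100000 resamples allow). The words ranked 2 to 4 shift or extend the same letters, namely CTAATC with a log2 ratio of 1.14, GATTAA with 1.10 and AGATTA with 0.96. CAGATG ranked 33, with 1.31 against 0.919 matches per kb and a log2 ratio of 0.51 (SE 0.024, 22 of 22 autosomes, permutation test adjusted p = 3.81e-05). CAGCTG went the other way, at 0.777 against 0.876 per kb (log2 ratio -0.17, SE 0.031, higher on 4 of 22 autosomes, permutation test adjusted p = 0.00071). That difference was no longer called in the central 200 bp (-0.09, permutation test adjusted p = 0.14) or in regions with no recurrent sequence, defined further on (-0.07, adjusted p = 0.27). In all, 659 words (31.7% of all 6-base words) were denser in the members than in the shared regions and 732 (35.2%) were sparser, so a call is read here with the rank and size of the word.

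The words sparsest in the members were rich in CpG. CCCGCG had the lowest ratio, at 0.064 against 0.221 per kb (log2 ratio -1.79), and the next, CGCGCA and CGGCGC, had -1.74 and -1.71, each lower on all 22 autosomes. Accordingly the members had 13.9 CpG per kb against 18.0 in shared regions (difference -4.12, SE 0.384) and a GC content of 47.6% against 49.2% (difference -1.61 percentage points, SE 0.253), both with adjusted p = 3.5e-05 over 14 feature tests by the same permutation. With counts standardised for GC content and width, TAATCC kept a log2 ratio of 1.17 and CAGATG 0.49 over the shared regions.

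The same words stood out against the converse set, the 3379 intergenic regions of the same limits listed for H146 only. TAATCC had 0.454 matches per kb there, a log2 ratio of 1.46 (SE 0.071, 22 of 22 autosomes, permutation test adjusted p = 0.000146), and CAGATG had 0.873, a log2 ratio of 0.58 (SE 0.040, 22 of 22 autosomes, the same adjusted p). CAGCTG had 0.825 per kb there and was not called (log2 ratio -0.09, SE 0.056, permutation test adjusted p = 0.14). Of all words 382 (18.4%) were denser and 403 (19.4%) sparser in the H82-only set. GC content was 45.8% in the H146-only regions, so that the members were higher there by 1.79 percentage points (SE 0.389, 15 of 22 autosomes, permutation test adjusted p = 0.0044), and CpG was 11.8 per kb, a difference of 2.09 (SE 0.342, 18 autosomes, permutation test adjusted p = 0.0028). The CpG difference was no longer called at a width of at least 750 bp (2.15, permutation test adjusted p = 0.17) or without recurrent sequence (0.96, adjusted p = 0.085). The sparsest words were rich in A and T, led by AATATT at -0.85, CAATTA at -0.81 and CAAATA at -0.81. GTAAAC, the core bound by forkhead factors such as FOXA1 and FOXA2, had 0.296 against 0.481 per kb (log2 ratio -0.70).

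Above TAATCC in that comparison stood 4 GC-rich words, CGGACG (log2 ratio 2.26), CGGCCG (1.58), CCGCCC (1.55) and CCGGAC (1.53). In regions free of recurrent 24-base words, a smaller set, CGGACG turned to -0.27 and CGGCCG to -0.30, CCGCCC went to 0.34 and CCGGAC to 0.11, and all 4 lost their call, while TAATCC had 1.55 and CAGATG 0.58 and both stayed called (permutation test adjusted p = 0.000424).

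**Figure D1:**
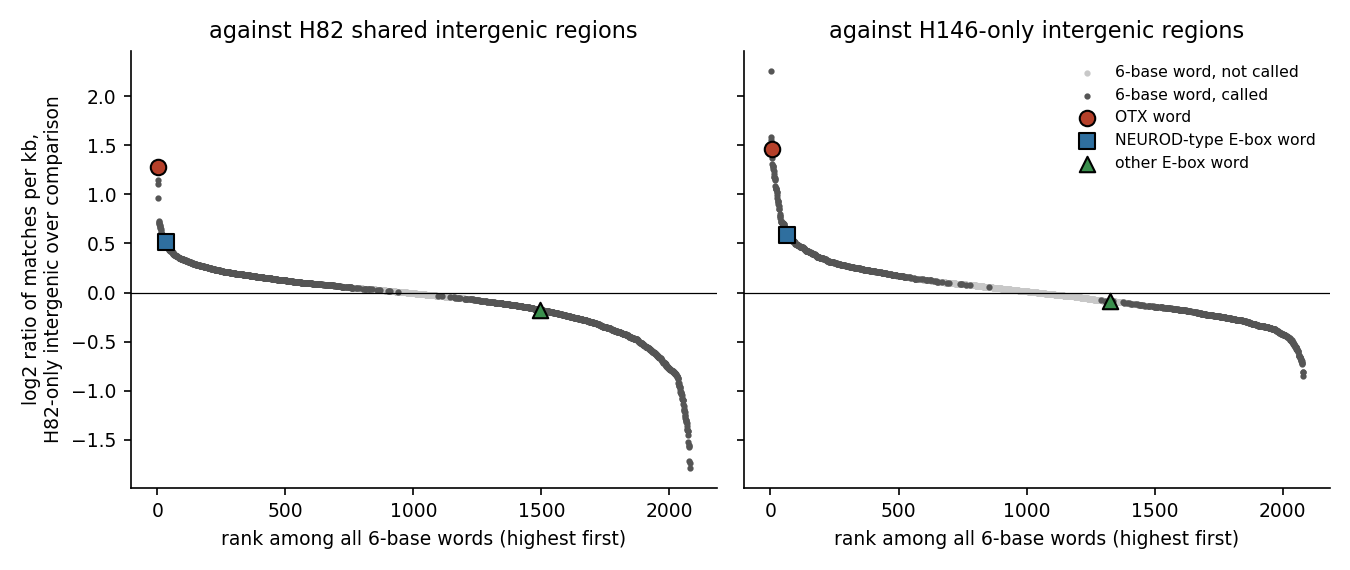
Log2 ratio of matches per kb of each 6-base word in H82-only intergenic regions over H82 shared intergenic regions (left) and over H146-only intergenic regions (right), against its rank among all words. Black and grey points are words called and not called, and large symbols mark TAATCC (OTX word), CAGATG (NEUROD-type E-box word) and CAGCTG (other E-box word), with TAATCC at 1.28 and 1.46 near the top of both panels.

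None of the 3 words was called different between the members and the 10446 H82-only regions of the same limits that lay in introns. TAATCC had 1.25 and 1.19 matches per kb (log2 ratio 0.07, SE 0.033, permutation test adjusted p = 0.54), CAGATG 1.31 and 1.26 (0.05, SE 0.022, adjusted p = 0.28), and CAGCTG 0.777 and 0.781 (-0.01, SE 0.034, adjusted p = 0.97). In this comparison 47 words (2.26%) were called denser and 30 (1.44%) sparser. The highest of them were CAATCG (log2 ratio 0.61), CAATAC (0.35) and CCAATC (0.31). None of these calls was left in regions without recurrent words, where 0 words were denser and 0 sparser by the adjusted permutation p, and 145 and 123 at an unadjusted p under 0.05. No other test tool was run.

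The words were denser near the middle of the members than in the rest of them. In the central 200 bp TAATCC had 1.54 matches per kb against 1.16 in the rest of the same regions (log2 ratio 0.41, SE 0.027, higher on 21 of 22 autosomes), and CAGATG had 1.51 against 1.25 (0.28, SE 0.038, 21 autosomes). CAGCTG was also denser at the centre, with 0.868 against 0.749 (0.21, SE 0.033, 19 autosomes). All 3 had a permutation test adjusted p of 0.000693, in a comparison where 109 words (5.24%) were denser and 221 (10.6%) sparser at the centre. By ratio TAATCC ranked 19, CAGATG 53 and CAGCTG 100 of all words. The comparison was not repeated without regions that held recurrent sequence. Within 50 bp of the centre TAATCC reached 1.58 per kb and CAGATG 1.58. The corresponding densities were 0.455 and 0.891 in shared regions and 0.376 and 0.808 in H146-only regions. From the centre to the bin of 450 to 500 bp, TAATCC fell to 1.15 in the members and went from 0.455 to 0.561 in the shared regions. Against the shared regions, TAATCC in the central 200 bp alone had a log2 ratio of 1.79 (SE 0.039).

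**Figure D2:**
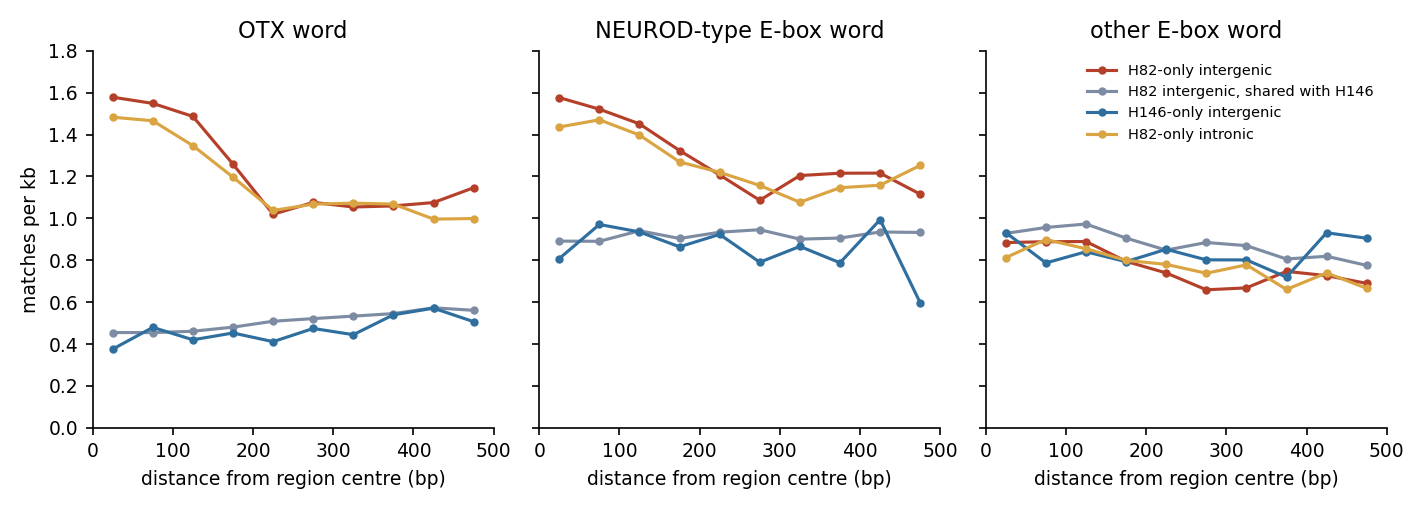
Matches per kb of TAATCC (OTX word), CAGATG (NEUROD-type E-box word) and CAGCTG (other E-box word) in bins of 50 bp by distance from the region centre, for the 4 sets of regions. The 2 H82-only sets rise toward the centre for TAATCC and CAGATG, to 1.58 per kb each in the H82-only intergenic set, and the shared and H146-only sets stay at or below 0.993 per kb.

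Counted by region, 6756 members (66.7%) held CAGATG, 6432 (63.5%) held TAATCC, 4348 (42.9%) held both and 1291 (12.7%) held neither. The product of the separate shares is 42.3%, so the words shared regions about as often as their frequencies gave. In the shared intergenic regions 20.2% held both and 31.0% neither, and in the H146-only regions 11.4% and 39.1%. In the H82-only intronic regions the shares were 39.8% and 13.8%. Wider regions hold more words, and the median width was 744 bp in the members, 832 bp in the shared, 648 bp in the H146-only and 760 bp in the intronic regions. In members with both words the closest pair lay a median of 79 bp apart, and 38.7% of these pairs lay within 50 bp. The values were 179 bp and 20.7% in the shared, 175 bp and 16.9% in the H146-only and 93 bp and 36.1% in the intronic regions. Without regions that held recurrent sequence the median was 104 bp in the members, 181 bp in the shared and 110 bp in the intronic regions. Denser words lie closer together, and the distances were not adjusted for density or width.

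**Figure D3:**
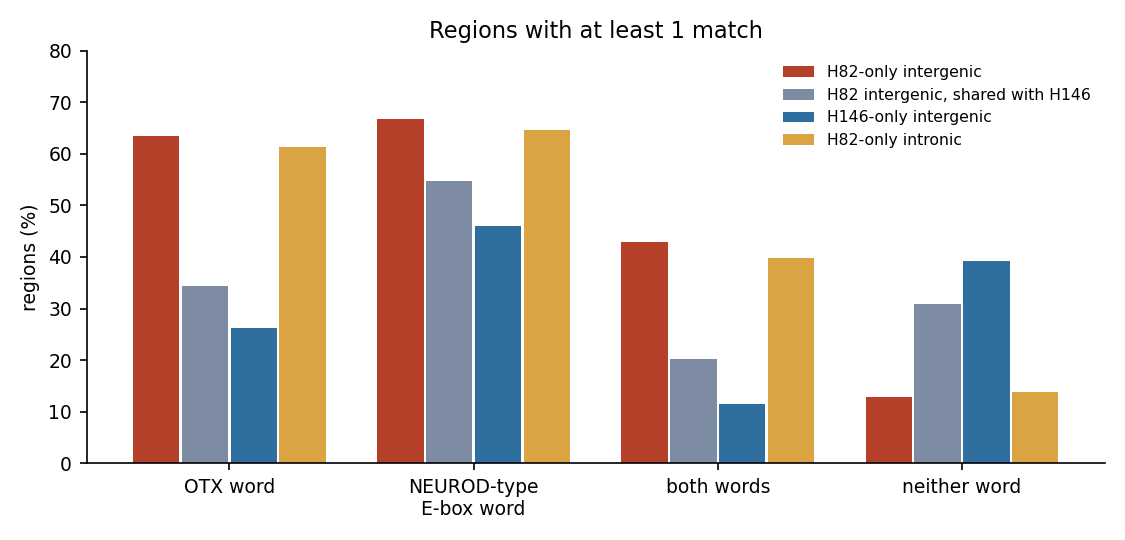
Percent of regions with at least 1 match to TAATCC (OTX word), to CAGATG (NEUROD-type E-box word), to both or to neither, by set. In the H82-only intergenic set 42.9% of regions held both words, against 20.2% of the H82 shared and 11.4% of the H146-only intergenic regions.

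The excess of CAGATG differed with the bases on either side of it. ACAGATGG, CCAGATGG and GCAGATGG had 0.177, 0.163 and 0.160 matches per kb in the members against 0.083, 0.081 and 0.086 in the shared regions, log2 ratios of 1.09, 1.01 and 0.89. Over the H146-only regions the ratios were 1.37, 1.60 and 1.36. The H82-only intronic regions were close to the members, with 0.169, 0.150 and 0.136 matches per kb and log2 ratios of 0.06, 0.12 and 0.23. The form with T in front, TCAGATGG, had 0.063 per kb in the members and 0.062 in the shared regions (0.02), and the 4 forms that begin with T ranged from -0.08 to 0.02. GCAGATGA and GCAGATGC were as flat, at -0.03 and -0.04. ACAGATGC had the highest ratio, 1.17, which fell to 0.56 without recurrent sequence, while ACAGATGG, CCAGATGG and GCAGATGG then had 1.13, 1.03 and 0.92. The forms with T in front then ranged from 0.02 for TCAGATGT to 0.30 for TCAGATGG, and GCAGATGA and GCAGATGC had 0.11 each. For TAATCC, all 16 combinations of neighbours were denser than in the shared regions. The most common was GTAATCCC, with 0.25 against 0.139 per kb (log2 ratio 0.85), and the highest ratio was that of TTAATCCA, with 0.132 against 0.040 (1.74). Without recurrent sequence GTAATCCC was at 0.034 against 0.016 per kb (1.13), the most common form was TTAATCCT, with 0.137 against 0.043, TTAATCCA had a ratio of 1.19 and TTAATCCC the highest, 1.77. In the intronic regions, recurrent sequence included, GTAATCCC had 0.262 and TTAATCCA 0.112 per kb. These 8-base forms were compared without a test.

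Of 16 words of other factors, CAGCTG among them, 12 were sparser and 4 denser in the members than in the shared regions, and 14 were sparser and 2 denser than in the H146-only regions, compared without a test. Regions with recurrent sequence were included, and apart from CAGCTG these words were not counted without them. TGTTTAC, the forkhead word, had 0.137 matches per kb in the members, 0.217 in the shared, 0.294 in the H146-only and 0.134 in the H82-only intronic regions. The core of the CTCF site, which marks insulators, was found in 0.296% of the members and in 2.26% of the shared regions. It was found in 0.533% of the H146-only and 0.297% of the H82-only intronic regions, so a low share was common to the sets of 1 line. CAGGTG, the E-box form read by TCF and ZEB factors, had 0.932 against 1.37 and 1.45 per kb, and 0.930 in the intronic regions. The AP-1 word TGANTCA had 0.327 against 0.402 and 0.413, and the homeodomain word TAATTA had 0.318 against 0.387 and 0.503. In the intronic regions TGANTCA had 0.306 and TAATTA 0.317. Of the 4 denser than in shared regions, AGGTCA, a word of nuclear receptors, had 0.784 against 0.657 and 0.612. The GATA word AGATAA had 0.722 against 0.626 and 0.731. The TEAD word GGAATG had 0.645 against 0.595 and 0.552, and the ONECUT word ATTGATC 0.074 against 0.068 and 0.079. In the intronic regions these 4 had 0.776, 0.706, 0.593 and 0.065 per kb.

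The other feature of the members was recurrent sequence. A 24-base word was taken as recurrent when it was found at 5 or more places on chromosome 2, and a mean of 16.3% of the bases of a member lay in such words, against 9.16% in the shared, 7.08% in the H146-only and 12.2% in the intronic regions. Of the members 1230 (12.1%) were recurrent over at least 50% of their bases, against 5.55%, 3.70% and 7.87%. The share was 6.59 points above the shared regions (SE 0.464, 22 of 22 autosomes, permutation test adjusted p = 2.4e-05 over 6 tests) and 8.44 points above the H146-only regions (SE 0.682, 21 autosomes, permutation test adjusted p = 2.4e-05). Over the intronic regions the difference was 4.27 points (SE 0.680, 19 autosomes, permutation test adjusted p = 3e-05). This measure was chosen after the data had been seen.

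To show which words recurred, 10 were picked one after another, each time the one in most of the members not yet taken, and they are numbered in that order. Those described here were chosen after their values were seen.

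Word 1 was found in 419 members (4.14%), 134 shared regions (0.582%), 346 intronic regions (3.31%) and 0 of the 3379 H146-only regions. Copies of the word stood at 2198 places on the autosomes, and 1937 of them (88.1%) lay in an H82 region and 26 (1.18%) in an H146 region. All 26 also lay in an H82 region. An H146-only region overlaps no H82 region by definition, so the count of 0 there was fixed and is no separate observation. Of the members with word 1 97.1% held CAGATG and 99.3% TAATCC. Word 7 had 1973 copies, of which 84.9% lay in H82 and 2.48% in H146 regions, and 290 members held both word 1 and word 7.

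Word 3 was found in 130 members (1.28%), 3 shared and 20 intronic regions and 0 H146-only regions. Of its 454 copies 67.6% lay in H82 regions and 1.10% in H146 regions. All 5 copies in H146 regions also lay in H82 regions, so its count of 0 H146-only regions was fixed too. Of the members with it 97.7% held CAGATG and 98.5% TAATCC. Word 5 was found in 80 members, 0 shared and 9 intronic regions, and 26.1% of its 597 copies lay in H82 regions against 0.335% in H146 regions. No repeat annotation was used, and the families of words 1, 3, 5 and 7 are not named. The remaining 6 of the 10 words were from Alu-like or A-rich sequence with 71772 to 257675 copies, of which 2.95% to 3.48% lay in H82 and 1.56% to 2.40% in H146 regions. Reads from near-identical copies cannot be placed with certainty, so how many single copies were open was not measured. Words 1, 3, 5 and 7 together were found in 700 members (6.91%), and in 690 of the 1230 members with at least 50% recurrent bases (56.1%).

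**Figure D4:**
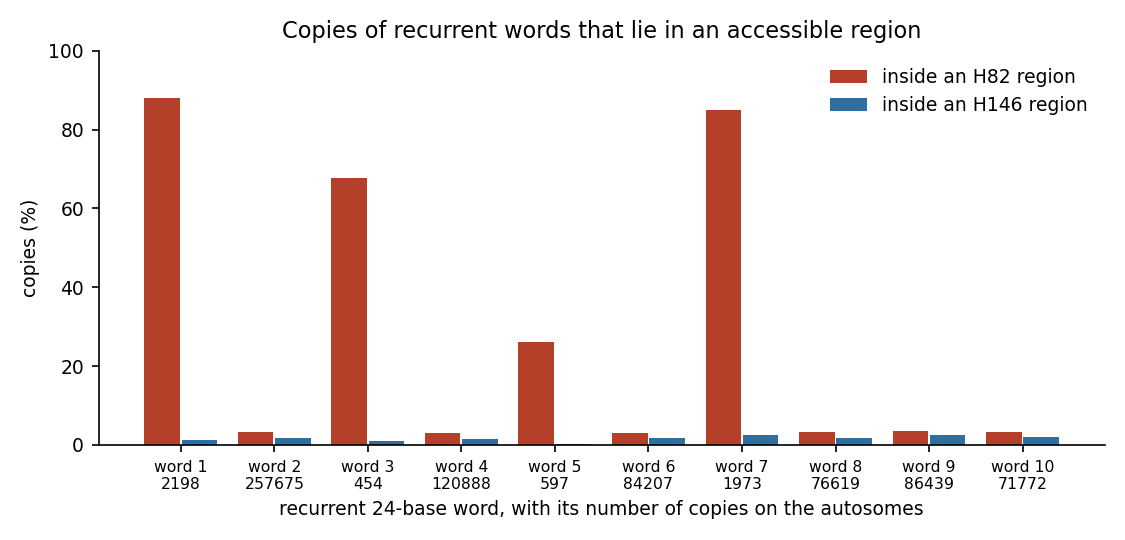
Percent of the autosomal copies of each of 10 recurrent 24-base words that lay inside an H82 region (red) or an H146 region (blue), with the number of copies under each word. Words 1, 3, 5 and 7 have 88.1%, 67.6%, 26.1% and 84.9% of copies in H82 regions and at most 2.48% in H146 regions, and the other 6 words have at most 3.48% in either.

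The excess of TAATCC and CAGATG was also measured in members without recurrent sequence. In the 5238 members without any recurrent word TAATCC had 0.957 matches per kb against 0.365 in 14430 shared regions chosen in the same way (log2 ratio 1.39, SE 0.043, permutation test adjusted p = 7e-05). CAGATG had 1.39 against 0.953 (0.54, SE 0.029, the same adjusted p).

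By position, the members lay a median of 92.2 kb from the nearest protein-coding TSS (quartiles 34.6 and 236 kb, farthest 4891 kb), and 62.3% were on its upstream side. Of the members 33.8% were within 50 kb, 37.2% at 50 to 200 kb, 18.6% at 200 to 500 kb and 10.4% beyond. Distances in the shared regions had a median of 90.8 kb, which was not called different (difference 1.36 kb, SE 4.43, permutation test adjusted p = 0.48). In the H146-only regions the median was 118 kb (difference -26.0 kb, SE 7.93, permutation test adjusted p = 0.032), and this call was lost with a minimum width of 750 bp, beyond 50 kb and without recurrent sequence (differences -1.83, -29.4 and -25.1 kb, adjusted p = 0.51, 0.50 and 0.10). Of the members 31.6% lay inside or within 1 kb of a lncRNA gene, against 32.7% of the shared, 29.6% of the H146-only and 9.31% of the intronic regions, and only the last difference was called (22.3 points, SE 0.987, permutation test adjusted p = 3.5e-05). Intronic regions lie inside protein-coding genes by definition and members outside them. That last difference is therefore tied to the definition of the sets and is no separate observation. Another member stood within 10 kb of 32.2% of the members. That share depends on the size of a set, and was 45.8% for the larger shared, 34.1% for the intronic and 10.7% for the smaller H146-only set. An H146 region stood within 500 bp of 284 members (2.80%) and within 5 kb of 4412 (43.5%).

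At the limits of the rule, 338 members had a width within 10 bp above the lower limit, and 339 regions that met the other conditions fell within 10 bp below it. At the upper limit 40 members fell within 50 bp below, and 28 other regions within 50 bp above. For the distance, 140 members lay at 10 to 11 kb from a TSS and 127 other regions at 9 to 10 kb.

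The members were spread over many genes. Of 19111 autosomal protein-coding genes 4023 (21.1%) were the nearest gene of at least 1 member, 1959 of them of exactly 1, while 193 genes had 8 or more and 760 genes sufficed to hold 50% of the members. Counts are given beside those of shared and H146-only intergenic regions and per Mb of territory, the intergenic sequence beyond 10 kb from which a gene has the nearest TSS. Over all genes there were 7.32 members per Mb and 0.44 members per shared region. The H82-only and H146-only counts follow from the rule and were not tested. The nearest gene need not be the one a region acts on.

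The largest counts belonged to TPTE with 40 members, OLFM4 and TBL1XR1 with 33 each, LSAMP with 30, ZPLD1 with 25, ACVR2A with 24, DNAJB9 with 23 and TLE4 with 22. TPTE lies in sequence near the centromere of chromosome 21 that has close copies elsewhere, so reads there are uncertain, and its 5.46 Mb of territory gave 7.33 members per Mb. OLFM4, a secreted glycoprotein of the gut epithelium, had 45 shared and 10 H146-only regions beside its 33 members. TBL1XR1, a subunit of the NCoR corepressor, had 44 shared and 1 H146-only region. LSAMP encodes a neuronal cell adhesion protein, and its 30 members were all upstream, 16.9 to 995 kb from the TSS, with 24 shared and 2 H146-only regions. TLE4, a Groucho corepressor, had 22 members, 12 shared and 2 H146-only regions. DNAJB9, a chaperone of the endoplasmic reticulum, had 23 members and 6 shared regions, and ACVR2A, an activin receptor, 24 and 22.

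Few shared regions accompanied the members near some of the named genes and many near others. SULF2, an extracellular heparan sulfate sulfatase, had 18 members, 3 shared and 0 H146-only regions, at 35.2 members per Mb. SYNDIG1, a synaptic protein bound to AMPA receptors, had 16 members, 1 shared and 0 H146-only regions, at 58.6 per Mb. MED13L, a subunit of the Mediator kinase module, had 17 members and 5 shared regions. PODXL, a sialomucin, had 18 and 17, and GPC5, a glypican, 16 and 44. Per Mb of territory the highest counts among genes with 8 or more members were those of SPSB1 (9 members, 155 per Mb), TMEM270 (8, 109 per Mb), MACROH2A1 (14, 107 per Mb), C5orf15 (15, 91.0 per Mb) and OLIG2 (8, 73.9 per Mb). SPSB1 is an adaptor of a ubiquitin ligase and MACROH2A1 a histone variant. In these 5 genes the shared regions numbered 2, 3, 1, 11 and 0.

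**Figure D5:**
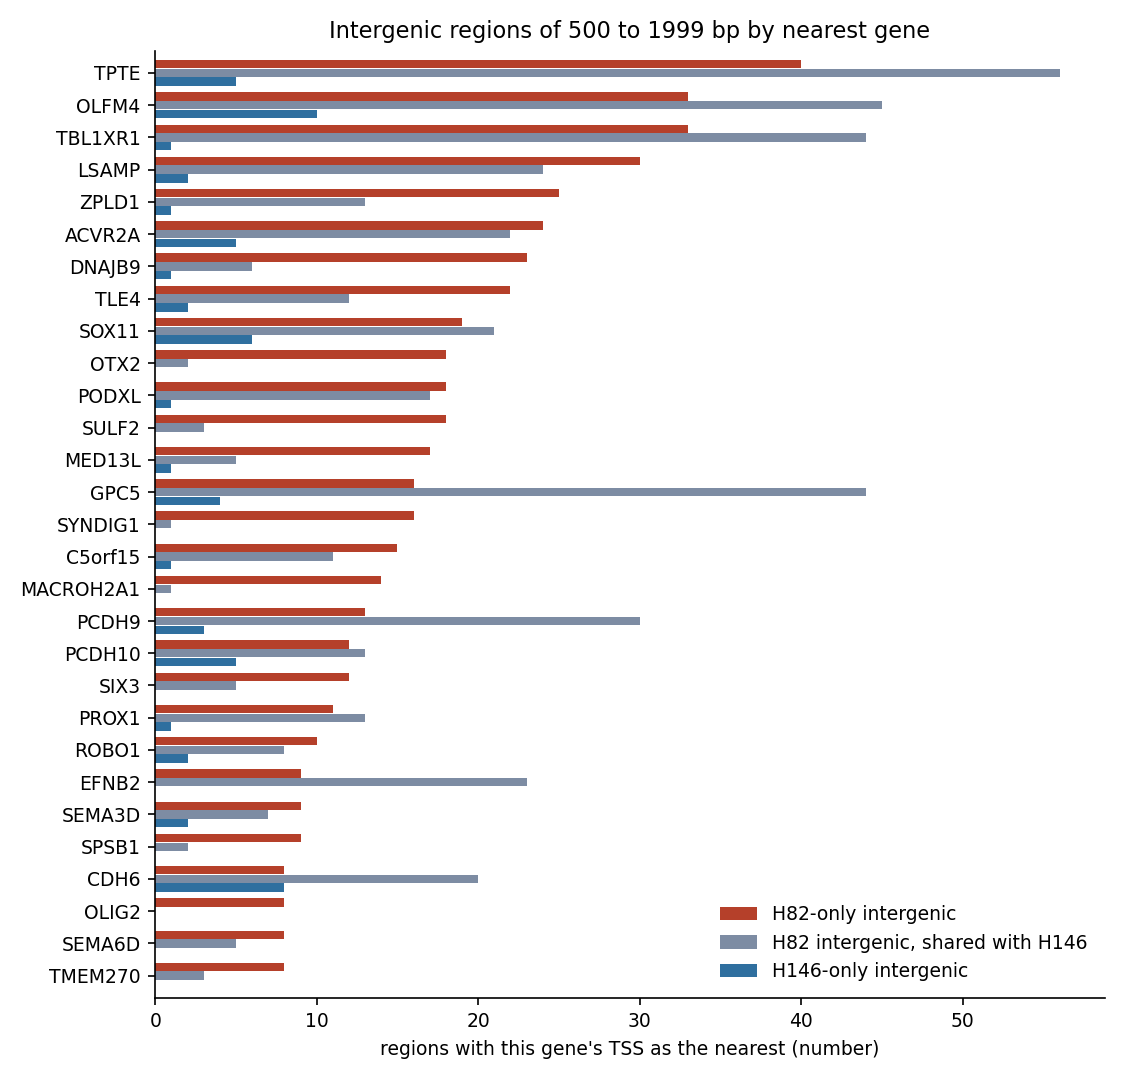
Number of intergenic regions within the width limits that have each gene as the nearest protein-coding gene, for the H82-only, the H82 shared and the H146-only set. Genes are ordered by their H82-only count, from 40 for TPTE to 8, and OTX2, SULF2, SYNDIG1, MACROH2A1 and OLIG2 have 18, 18, 16, 14 and 8 members, against at most 3 shared and 0 H146-only regions.

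OTX2 had 18 members, 2 shared and 0 H146-only regions, at 49.5 members per Mb. Of its members 17 lay upstream, on the telomeric side of this minus-strand gene, from 11.6 to 223 kb from its TSS. They stood in groups, with 5 members between 11.6 and 26.7 kb, 3 between 167 and 171 kb and 6 between 199 and 223 kb. The only downstream member was at 114 kb. The widths ranged from 657 to 1721 bp, and the nearest H146 region was 1.56 to 17.4 kb away. Of the 18, 15 held TAATCC, 10 held CAGATG and 9 both, beside 63.5%, 66.7% and 42.9% of all members. Their median width was 923.5 bp against 744 bp in all members, and wider regions hold more words. Of the 18, 2 were recurrent over at least 50% of their bases, beside 12.1% of all members. Most of the others held some recurrent sequence, while 51.7% of all members held none. Measured to the nearest edge of a gene body instead of the TSS, 11 of the 18 remained nearest to OTX2. Of the 18 members, 7 lay on chromosome 14 between 57000001 and 58000000, a window of which H82 regions of every kind covered 61.3% and H146 regions 1.86%.

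SIX3, a homeobox factor of the eye field and forebrain, had 12 members, 5 shared and 0 H146-only regions at 65.6 per Mb. Of these, 9 lay 74.5 to 154 kb upstream, 1 lay 12.7 kb upstream, and 2 lay 20.96 and 24.9 kb downstream. TAATCC was found in 8, CAGATG in 6 and both in 4, beside 63.5%, 66.7% and 42.9% of all members. Measured to the nearest edge of a gene body, 4 of the 12 remained nearest to SIX3. OLIG2, a basic helix-loop-helix factor of oligodendrocyte and motor neuron precursors, had 8 members 12.4 to 93.1 kb from its TSS, of which 6 held each word and 5 both. The member 75.3 kb upstream was the widest at 1867 bp and held 5 CAGATG and 3 TAATCC matches. SOX11, a factor of immature neurons, had 19 members from 32.0 to 784 kb on both sides, 21 shared and 6 H146-only regions. CAGATG was found in 15 of these members and TAATCC in 9. The shares of all members given for SIX3 are the background for OLIG2 and SOX11 too. PROX1, a homeobox factor of neural and endocrine precursors, had 11 members, 13 shared regions and 1 H146-only region.

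The lists of lineage factors differed in how many of their genes had members. Each is set beside the 21.1% of all autosomal protein-coding genes, and no list was tested. Of the 11792 genes that have any territory 34.1% had members, which is above the 33.3% of the OTX list and the 26.9% of the SWI/SNF list given here. Of 12 OTX, CRX and eye-field homeobox genes 4 had members, 36 in all, which was 19.0 per Mb and 2.00 members per shared region. OTX2 and SIX3 held 30 of the 36, and the other 10 genes had 6 members, at 4.45 per Mb and 0.545 per shared region, of which the first is below the 7.32 of all genes. Of 17 proneural and related basic helix-loop-helix genes 10 (58.8%) had members, 34 in all, at 15.5 per Mb and as many as their 34 shared regions. Most of these members belonged to OLIG2, OLIG1 and BHLHE22, with 8, 7 and 7, which are not proneural genes in the strict sense. NEUROD4 had 4, and 6 others had 1 or 2. The density of the list without its leading genes was not computed. NEUROD1 itself had 0 members, 5 shared regions and 1 H146-only region in a territory of 0.0955 Mb. Of 18 LIM-homeobox, ONECUT and POU genes 12 had members (39 in all, 6.94 per Mb), and of 11 SOX genes 6 (38 in all, 6.30 per Mb), with 191 shared regions. SOX2 had 3 members against 54 shared regions. Of 13 FOXA, NKX2-1 and endoderm genes 6 had members, 15 in all at 7.41 per Mb. FOXA2 had 0 members beside 21 shared and 3 H146-only regions.

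Genes the study discussed for neuroendocrine identity had members in 7 of 14 cases, and 18 of those 28 members belonged to OTX2. INSM1, a zinc finger factor of neuroendocrine cells, had 0 members and 0 shared regions in 0.0114 Mb of territory. Of the 9 low-neuroendocrine genes 3 had members, 10 in all, at 14.7 per Mb, above the 7.32 per Mb of all genes, but with 0.192 members per shared region, below the 0.44 of all genes. The neuroendocrine list had 10.1 per Mb and 0.459 per shared region. HES1, an effector of Notch signalling, had 6 members beside 41 shared regions. Among the 5 genes listed as ERBB receptors and their ligand NRG1, only ERBB4 had a member. These lists came from the study's account of these samples and are not independent of it. Of 4 MYC family genes all had members, 12 in all, led by MYCN with 7. They also had 60 shared and 12 H146-only regions. Their 6.35 members per Mb and 0.2 per shared region were both below the values of all genes. Of 4 NFI genes 2 had members, 5 in all at 6.43 per Mb.

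Genes of neuronal wiring had many members over wide territories. Of 25 axon guidance genes 19 (76.0%) had members, 77 in all at 4.15 per Mb. They were led by ROBO1, a receptor for SLIT proteins, with 10, the semaphorin SEMA3D and the ephrin EFNB2 with 9 each, and the semaphorin SEMA6D with 8. Of 26 cadherin and synaptic adhesion genes 20 (76.9%) had members, 86 in all at 2.38 per Mb, led by the protocadherins PCDH9 with 13 and PCDH10 with 12 and by CDH6 with 8. Of 20 potassium channel genes 16 had members (48 in all, 5.05 per Mb), and of 19 glutamate and GABA receptor genes 8 (20 in all, 4.16 per Mb). All 4 lists were below the 7.32 members per Mb of all genes, and the median territory of their genes was 0.489, 1.28, 0.290 and 0.178 Mb against 0.00639 Mb over all genes. Of 26 SWI/SNF subunit genes, the complex that FHD-286 acts on, 7 (26.9%) had members, 18 in all at 8.71 per Mb.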

How the data were processed

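Regions came from 2 lists, 1 per line. By the study's methods the authors trimmed reads with Trim Galore 0.4.4, aligned them to hg38 with bowtie2 2.3.4 at default settings, removed duplicates with Picard and called regions per sample with MACS2. Blacklisted regions were filtered out, and those left within 500 bp were merged. How reads with several equal alignments were kept, and any shift of Tn5 ends, is not given in the sources used here. The deposited values are other than measurements per sample, namely the first and last position of each region, with the first counted from 0. They carry no score, count or depth, so counts of regions have no spread between cultures, and the number of per-sample columns set aside was 0. Merging joins neighbouring sites, so a width is not that of a single site. More libraries, or deeper ones, lengthen a list. H146 libraries were sequenced in 2 batches per the methods.

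Coordinates are printed 1-based on hg38. Genes were those of GENCODE release 44, and a TSS was the 5′ end of a gene. Overlap was called at 1 bp and differed from bedtools 2.31.1 for 0 regions. All words of 6 bases were counted on both strands in each set. Differences per autosome were tested by two-sided sign flips (100000 resamples, seed 1) after adding 0.5 to each count, with a pooled value, a jackknife SE over chromosomes and Benjamini-Hochberg adjustment over the words or over 14 feature tests, with a threshold of 0.05. The test was run on simulated counts drawn independently for each word. Words in real sequence overlap and recur together, so that check does not cover their dependence. Python 3.11.15 and numpy 2.4.6 were used.

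The members, gene lists, words and named items were chosen with earlier results of these data known. Named were the 15 genes with the most members, the 5 with the most per Mb among genes with at least 8, list genes with at least 8, and NEUROD1, OTX2, INSM1 and FOXA2, with the 8 highest and lowest called words per comparison, both E-box words and TAATCC, and the 5 densest windows of 1 Mb. Not every gene and word met by the rule is printed. Other list genes were named after their values were seen. For the printed 200 bp windows, list genes came first, and chromosome 8 and regions recurrent over at least 50% of their bases were left out. A further gene of the naming rule and some sequences are not reported here. A fit of FHD-286 against untreated cells, planned in case of counts, was not run.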

Additional observations from a re-analysis of the deposited data

How the results depend on the processing

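TAATCC and CAGATG kept their direction and their call over the shared and the H146-only regions under each of 9 alternatives: no region of the other line within 500 bp, a width of at least 750 bp, over 50 kb from a TSS, TSSs of all transcripts, no chromosomes 8 and 14, the central 200 bp, standardising for GC content and width, the share of regions with a match, and regions without recurrent words (added after the data were seen). TAATCC ranged from 0.88 to 1.79 over shared and from 1.28 to 1.87 over H146-only regions, and CAGATG from 0.28 to 0.79 and from 0.53 to 0.79. Counts of called words moved more, and the cause was not tested. By share of regions 291 words were more and 1146 less frequent than in shared regions, and 929 and 93 than in H146-only regions. Against H146-only regions 213 were denser and 235 sparser at 750 bp or wider, 240 denser in the central 200 bp, and 168 denser and 190 sparser without recurrent words. Against intronic regions the denser and sparser words numbered 8 and 4 at 750 bp or wider, 3 and 7 beyond 50 kb, 5 and 3 in the central 200 bp and 0 and 0 without recurrent words. The sparser words were 57 with all TSSs and 15 without chromosomes 8 and 14, and the denser 23 by share of regions. Words denser and sparser at the centre fell to 69 and 94 at 750 bp or wider, and to 42 and 51 beyond 50 kb, in alternatives added after the data were seen.

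Reversed single words were CGGACG over shared regions by share of regions (-0.15) and without recurrent words (-1.16), and over H146-only regions without them (-0.27), and CGGCCG likewise (-0.30). CAGCTG turned positive over H146-only regions at 750 bp or wider (0.0036), in the central 200 bp (0.0535) and by share of regions (0.084), and over intronic regions beyond 50 kb (0.0608), with all TSSs (0.0396) and in the central 200 bp (0.0549), none of them called. TAATCC over intronic regions was -0.0011 beyond 50 kb. CpG per kb over H146-only regions was no longer called at 750 bp or wider (2.15) or without recurrent words (0.96), nor was the TSS distance at 750 bp or wider (-1.83 kb), beyond 50 kb (-29.4 kb) and without recurrent words (-25.1 kb). The TSS distance against shared regions turned to -4.16 kb beyond 50 kb. Against intronic regions GC content was 0.34 points and CpG per kb 0.13 beyond 50 kb, and with all TSSs they were 0.71 and 0.83, both called there (permutation test adjusted p = 0.011 and 0.0033). The share near another region of the same set turned to 0.47 points against intronic regions with all TSSs. The members numbered 4992 at 750 bp or wider, 6709 beyond 50 kb and 5238 without recurrent words, and the genes with a member 2647 and 2337 in the first and second of these. Measured to gene body edges, members nearest to TBL1XR1, PODXL, SULF2 and MED13L numbered 25, 9, 13 and 23.

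No paired analysis was possible because the lists hold no value per sample. The share of soft-masked bases could not be computed from the reference at hand, whose letters are all in capitals, and was replaced by recurrent words.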

Other observations

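The members were unevenly spread over chromosomes, in values that follow the rule and were not tested. Chromosome 1 had 12.9 members per Mb of intergenic territory, chromosome 15 had 11.3 and chromosome 7 had 10.4, while chromosome 18 had 2.86. Per shared intergenic region there were 0.915 members on chromosome 21, 0.738 on chromosome 15 and 0.0968 on chromosome 18, where 138 members stood beside 1426 shared and 241 H146-only regions. The DNA copies of these chromosomes in each line were not measured.

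The densest windows of 1 Mb held 27 to 33 members. Chromosome 14 from 57000001 to 58000000 held 33, with 6 shared and 0 H146-only regions, and H82 regions of every kind covered 61.3% of this window against 1.86% for H146 regions. Its members were nearest to EXOC5, CCDC198, OTX2 and AP5M1. Chromosome 21 from 43000001 to 44000000 also held 33, nearest to SIK1, CRYAA, AGPAT3 and CBS, with 17.7% covered in H82 and 5.38% in H146. This window had 18 shared and 2 H146-only regions. On chromosome 3 the window from 117000001 to 118000000 held 28 members, all nearest to LSAMP. It had 24 shared and 2 H146-only regions, with 7.37% covered in H82 and 4.96% in H146. Chromosome 12 from 115000001 to 116000000 held 27, nearest to MED13L and TBX3, with 3 shared regions and 1 H146-only region, and 3.58% covered in H82 against 0.444% in H146. Chromosome 7 from 73000001 to 74000000 held 27 members, with 19 shared regions.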
